A study of Mus musculus with 18 samples.

Results

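The histone cluster genes are the genes whose array name begins with Hist1h, Hist2h, Hist3h or Hist4h. The array carried 56 of them, and 52 were measured, of 21542 genes measured in all. A gene was kept when a probe for it stood well above background, by the scanner's flag, on 5 or more of the 6 arrays in any group, and the brightest such probe stood for the gene. The 52 genes were 6 linker histones (H1), 15 H2A genes, 13 H2B genes, 9 H3 genes and 9 H4 genes. By the mm9 probe positions, 40 of them lay on chromosome 13, 9 on chromosome 3, 2 on chromosome 11 and 1 on chromosome 6. The probes named for the other 4 genes, Hist1h2ad, Hist1h2al, Hist2h2aa1 and Hist3h2bb-ps, were not well above background on any array. A probe listed by accession and described as histone cluster 2 H2aa1 was, with a chow median of 12.68, and lies outside the 52 genes.

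The RNA came from cells that a chelating buffer had released from the ileum of C57BL6/J mice, with 1 one-colour Agilent array for each sample. There were 3 groups of 6 arrays. Of these, 2 came from Pgc1α fl/fl mice, kept on chow or on the Western diet (WD, written as HFD in the sample labels), and the third from iPgc1α-/- mice on WD. The mice entered the diet period at 8 weeks of age and were fed for 8 weeks, and the WD held 42% of its energy as fat and 0.2% cholesterol. All 3 groups carried floxed alleles of Pgc1α, and in iPgc1α-/- mice Cre under the Villin promoter deletes the floxed exons in the gut epithelium, so other cell types in the harvest keep the gene. Chow-fed iPgc1α-/- mice are not analysed here. The 2 comparisons, by diet within Pgc1α fl/fl mice and by genotype within WD, share the 6 Pgc1α fl/fl WD arrays.

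Eukaryotic DNA is wrapped around an octamer of the core histones H2A, H2B, H3 and H4, and a linker H1 binds where the DNA enters and leaves. Most of the genes in the Hist clusters are replication-dependent: they are transcribed mainly in S phase, lack introns, and give mRNAs that end in a conserved stem-loop in place of a poly(A) tail. In the small intestine, S phase is found mainly in the crypts, whose cells divide continuously and feed the villi. Labelling here was primed with oligo-dT, and oligo-dT reaches a histone mRNA only where it carries a poly(A) stretch. In such bulk samples, fewer cells of a type and less RNA per cell cannot be told apart.

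Signals are given as log2 of the spot intensity after normalisation between arrays, and a difference of 1 on this scale is a 2-fold change in signal. A gene was called when its Benjamini-Hochberg adjusted p from limma over all probes kept was 0.05 or lower and its fold change was above 1.5. Adjusted p-values below come from that one limma fit over 18 arrays, and SE is its standard error. Ppargc1a, the gene that encodes Pgc1α, did not read lower where the label is iPgc1α-/-. Its brightest probe read 10.94 ± 0.46 (SD, n = 6) on chow, from 11.26 to 11.45 (median 11.40) in the Pgc1α fl/fl WD arrays and from 11.36 to 12.01 (median 11.63) in those labelled iPgc1α-/-. The genotype difference in Ppargc1a was +0.30 (SE 0.16, adjusted p = 0.572; two-sided exact permutation p = 0.0173), and whether the probe lies in the deleted exons was not determined. Directions by genotype therefore rest on the labels.

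The share of probes well above background was 56.3% to 62.3% per array, no histone spot was saturated, and each of the 3 slides held 2 arrays of every group. Markers of enterocytes, the absorptive cells of the epithelium, were bright throughout, with Vil1 between 16.13 and 16.66 on all 18 arrays. Immune markers were present too and were lower on WD. The mean signal of 11 T cell markers lay between 9.37 and 10.62 on chow, 8.57 and 9.22 on WD and 8.63 and 9.30 in the arrays labelled iPgc1α-/-. Among the chow arrays, replicate 4 held the highest value for 31 of the 52 histone genes (59.6%, against 21.3% of all genes), and replicate 3 the lowest for 29 (55.8%, against 21.6%). The WD counts, the gene lists and the single genes that passed on WD are given below with and without chow replicates 4 and 5, the 2 chow arrays with the highest mean over these genes.

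**Figure D1:**
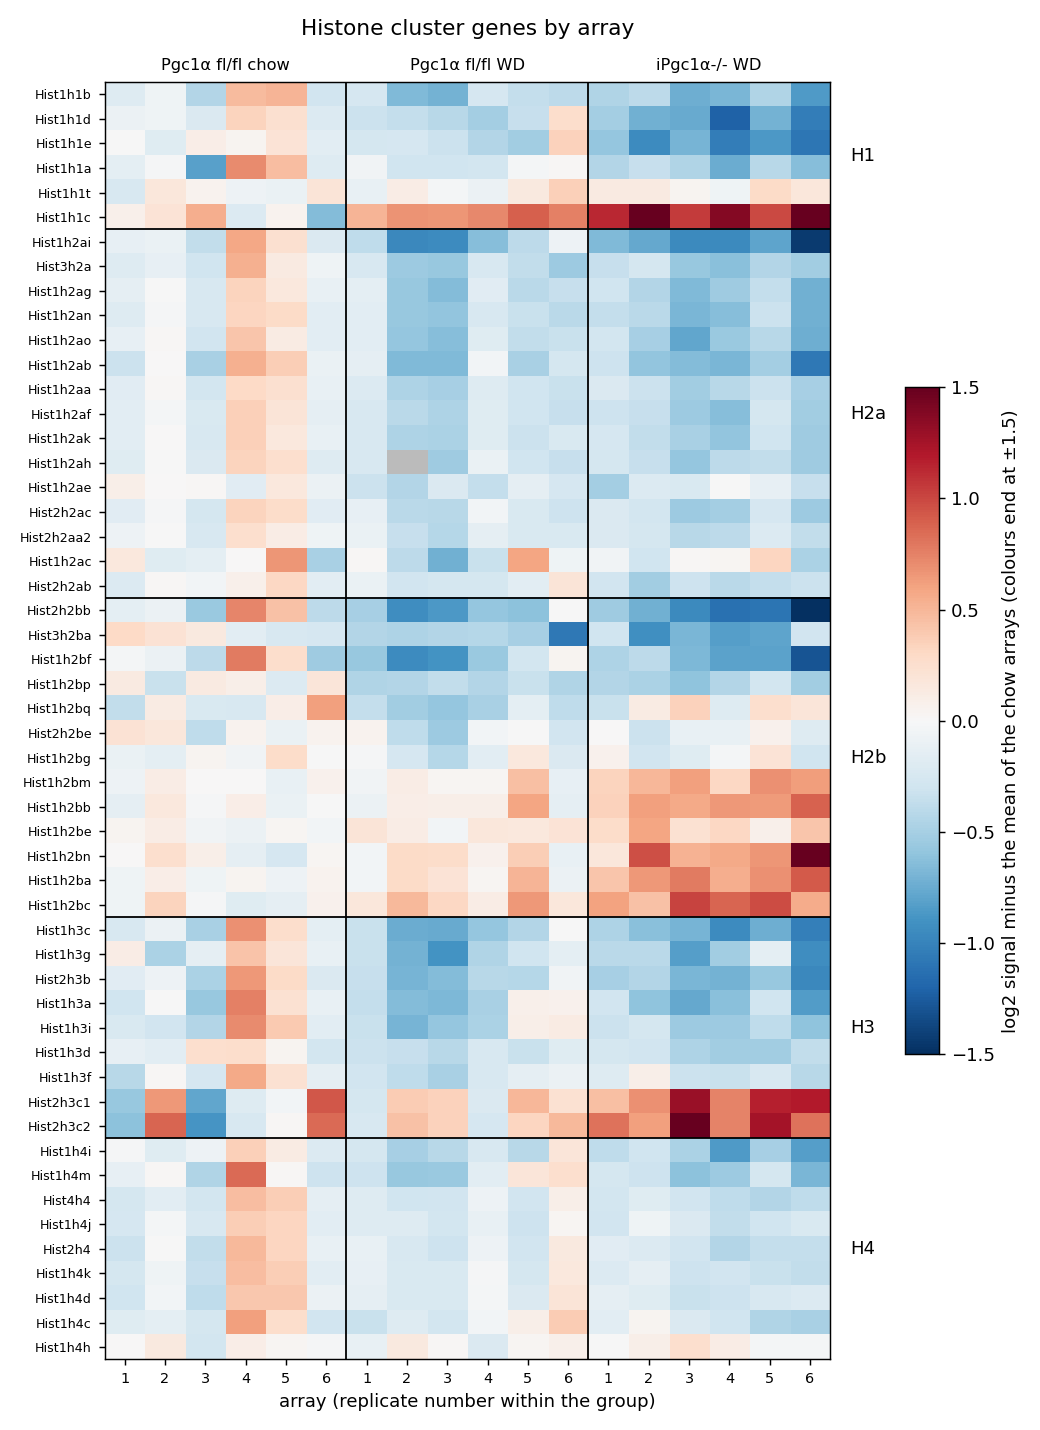
Heat map of the 52 histone cluster genes (rows, grouped by class) on the 18 arrays (columns, grouped by diet and genotype). Colour is the log2 signal minus the mean of that gene over the chow arrays, and the grey cell is the missing value of Hist1h2ah. Chow replicate 4 is high for 31 genes and chow replicate 3 is the lowest chow array for 29, and a smaller set of H1, H2B and H3 genes is highest in the arrays labelled iPgc1α-/-.

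On WD, most histone cluster genes read slightly lower than on chow. Of the 52 genes, 42 had a negative log2 fold change (80.8%, against 49.5% of all genes), with a median of -0.26 against 0.00 over all genes tested. An adjusted p of at most 0.05 was reached by 20 of them (38.5%, against 24.6% of all genes). Of those, 19 were lower (36.5%, against 14.2%) and 1 was higher (against 10.4%). The changes were small: a single gene, the linker histone Hist1h1c, also passed the fold threshold, which 8.43% of all genes passed, and it was higher. The 95% interval of the change lay within 1.5-fold in both directions for 32 of the 52. The chow and WD arrays did not overlap for 2 genes, Hist1h2bp and Hist3h2ba, both lower on WD (5.3% of all genes), and for none that was higher (5.11% of all genes).

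Averaged over the 51 genes read on every array, the signal was 10.55 ± 0.19 on chow (SD, n = 6; lowest 10.32, highest 10.83) and 10.35 ± 0.12 on WD (SD, n = 6; lowest 10.19, highest 10.50), so the 2 groups overlapped. The WD counts depended on single arrays. With chow replicates 4 and 5 left out together, a choice made because their histone signals were the highest, the median change was -0.11, 32 of 52 genes were lower and 3 had an adjusted p of 0.05 or lower. Those were Hist1h1c (+0.67, adjusted p = 0.0182), Hist3h2ba (-0.64, adjusted p = 0.00821) and Hist1h2bp (-0.435, adjusted p = 0.00444), and Hist1h1c and Hist3h2ba passed the fold threshold too. The count of 20 was 7 without chow replicate 4, 6 without chow replicate 5, 6 without WD replicate 2 and 5 without WD replicate 3. The share over all genes was not counted for these smaller sets of arrays. A drop that all genes share thus cannot be told apart from one of the histone cluster genes. By class, the SD of the mean signal over the chow arrays was 0.185 to 0.303 for H1, H2A, H3 and H4 and 0.065 for H2B.

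**Figure D2:**
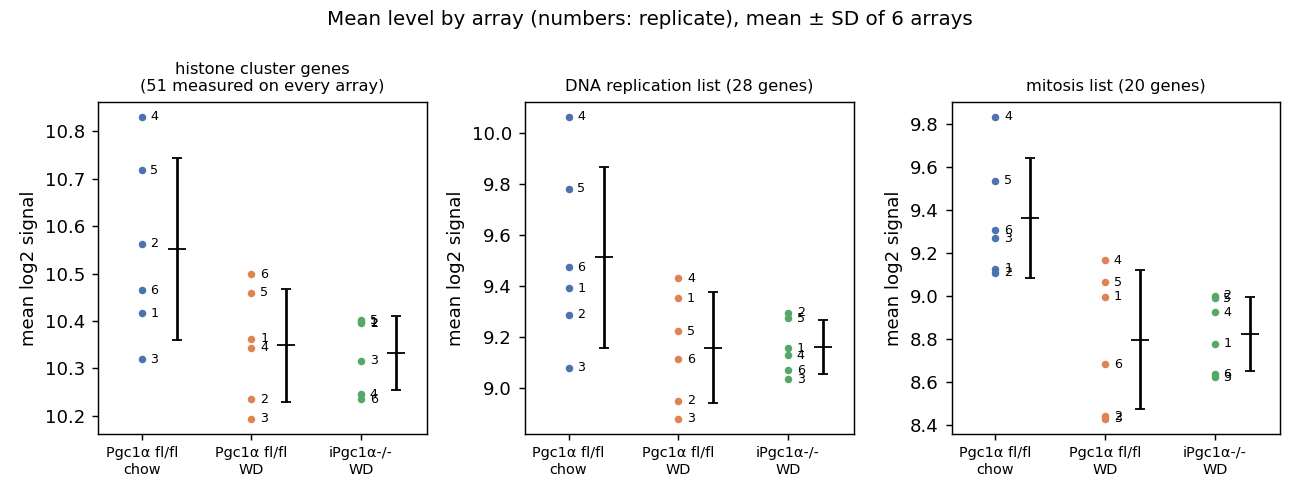
Mean log2 signal on each array (points, numbered by replicate) over the 51 histone cluster genes read on every array, the 28 DNA replication genes and the 20 mitosis genes, with bars for the mean ± SD of each group (n = 6). Chow replicates 4 and 5 are the highest in all 3 panels, and the histone means overlap between chow (10.32 to 10.83) and WD (10.19 to 10.50).

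In the arrays labelled iPgc1α-/-, the linker histone Hist1h1e was lower than in Pgc1α fl/fl mice on the same diet, and it was the only histone cluster gene called (0.135% of all genes were called). One H2B gene, Hist1h2ba, was higher with an adjusted p under 0.05 and a fold change below 1.5. Together they made 2 of 52 at adjusted p of 0.05 or lower (0.227% of all genes), 1 lower (0.162%) and 1 higher (0.065%). Leaving out single arrays gave 0 to 4. By sign, 35 of 52 were lower (67.3%, against 48.1% of all genes), with a median change of -0.11 against 0.01 over all genes. The mean over 51 genes was 10.33 ± 0.08 (SD, n = 6; lowest 10.24, highest 10.40), inside the range of the Pgc1α fl/fl WD arrays. The classes did not share a direction by sign: 8 of 9 H4 genes and 13 of 15 H2A genes were lower, and 9 of 13 H2B genes were higher. The groups did not overlap for Hist1h1a, Hist1h1e and Hist2h2ab on the lower side (0.645% of all genes) and for Hist1h1c and Hist2h3c2 on the higher side (0.32% of all genes).

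**Figure D3:**
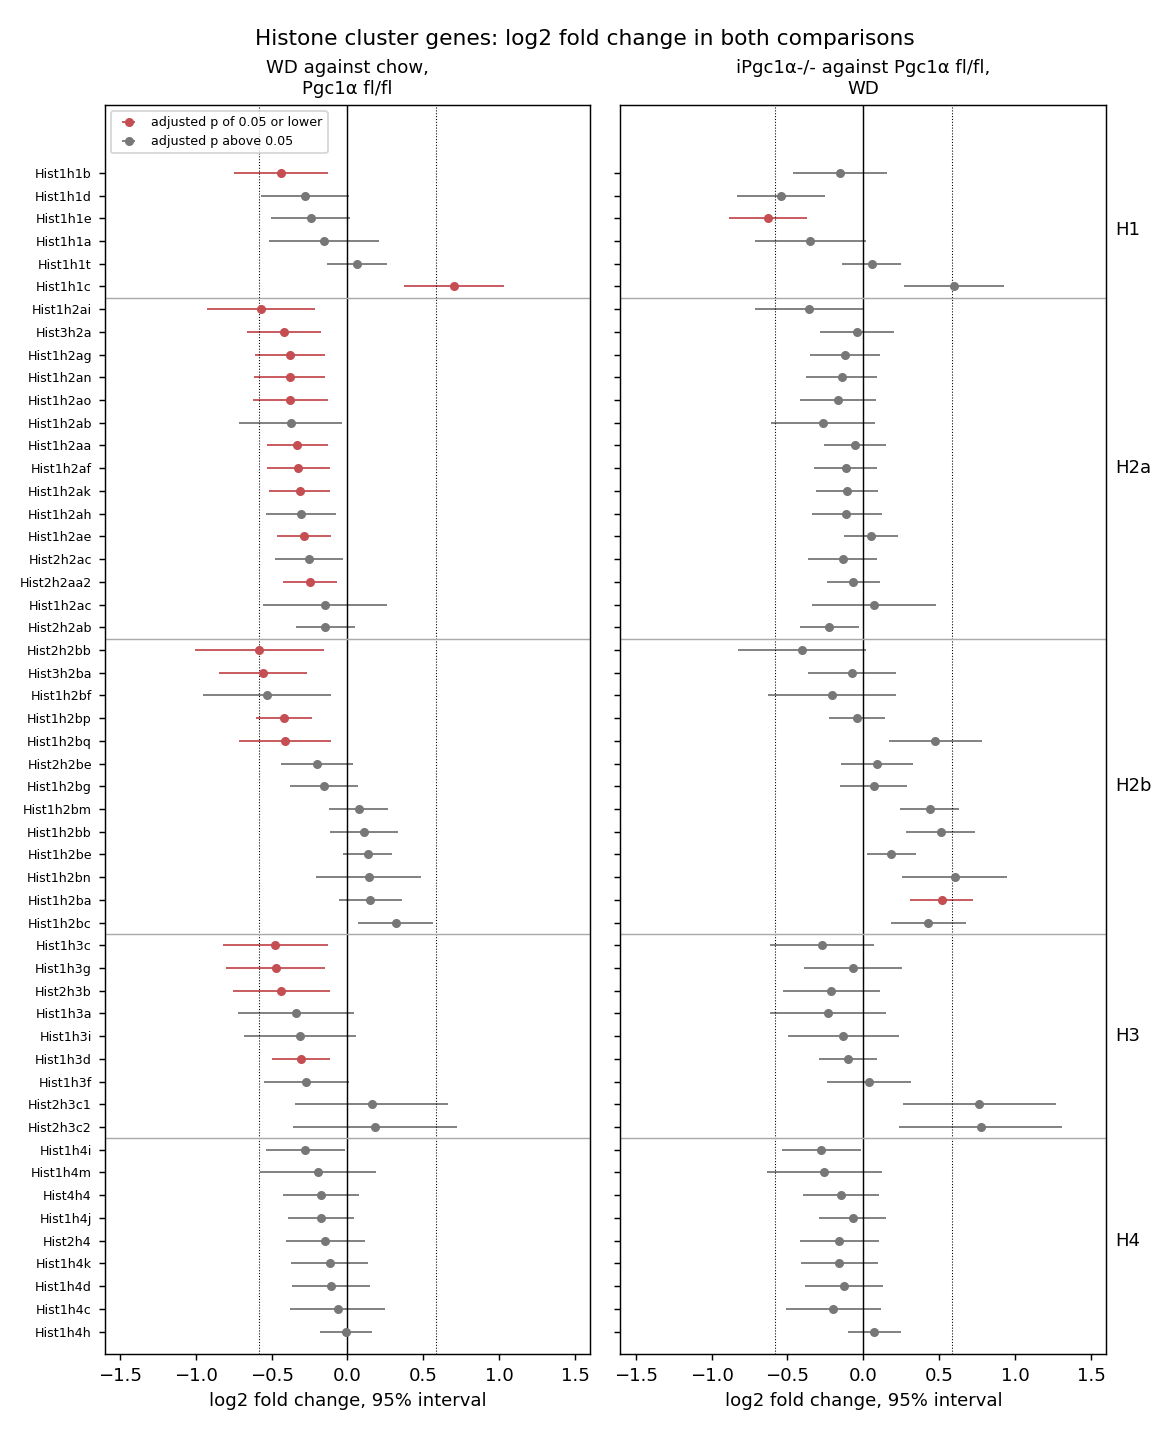
Log2 fold change of each of the 52 histone cluster genes, by class, for WD against chow and for iPgc1α-/- against Pgc1α fl/fl on WD, with 95% intervals from limma, red where the adjusted p was 0.05 or lower and dotted lines at a fold change of 1.5. Hist1h1c lies at +0.70 and +0.60 and Hist1h1e at -0.24 and -0.63, while the 9 H4 genes lie between -0.28 and -0.01 for WD.

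The linker histones held both called genes, and by genotype these 2 genes read in opposite directions. H1 proteins compact the nucleosome fibre, and somatic cells express several subtypes from separate genes. Hist1h1c (H1.2; probe at mm9 chromosome 13, 23832018 to 23832077) read from 9.93 to 11.13 on chow (median 10.65), from 11.10 to 11.48 on WD (median 11.28) and from 11.58 to 12.35 in the arrays labelled iPgc1α-/- (median 11.84). Only the highest chow array reached the WD range, and every array labelled iPgc1α-/- was above every Pgc1α fl/fl array. Hist1h1c rose on WD by 0.70 (SE 0.16, 1.63-fold, adjusted p = 0.00288), and the 3 slides gave +0.48, +0.89 and +0.74. Without chow replicate 6 the difference was +0.58 (adjusted p = 0.00509), under the fold threshold. The genotype difference of +0.60 (SE 0.16) did not pass after adjustment (adjusted p = 0.196).

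A second probe for Hist1h1c, 688 bases nearer to the coding sequence, gave another picture. It read from 8.29 to 9.35 on chow (median 8.94), 8.65 to 9.29 on WD (median 8.82) and 8.85 to 9.51 in the arrays labelled iPgc1α-/- (median 9.07). Its changes were +0.06 for WD (adjusted p = 0.838) and +0.21 for genotype (adjusted p = 0.693). The gap between the probes, farther minus nearer, widened by 0.39 by genotype (two-sided exact permutation p = 0.00216, the smallest that 924 arrangements allow; Benjamini-Hochberg 0.0346 over 16 such tests in 8 genes with 2 probes). For WD against chow it widened by 0.65 (exact permutation p = 0.00649, adjusted 0.0519). The call for Hist1h1c thus belongs to the farther probe, which lists no RefSeq transcript and lies beyond the stem-loop. With both probes averaged, the WD difference was +0.38 (adjusted p = 0.0593). The nearer probe holds the end of the coding sequence and runs into the first letters of the stem-loop, and both stretches are shown because they place it at the end of the coding sequence, with the stop codon and the stem-loop letters in capitals.
Hist1h1c, coding end of the nearer probe: aagaaggttgcagccaagaaaaagTAG
Hist1h1c, last bases of the nearer probe: cctaacaatccaaaaGGCTCTTTT

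Hist1h1e (H1.4; mm9 chromosome 13, 23713707 to 23713766) had the reverse pattern by genotype. Its probe covers the last codons, with the stop codon in capitals.
Hist1h1e: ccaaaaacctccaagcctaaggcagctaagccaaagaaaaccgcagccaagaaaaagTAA
Hist1h1e read from 13.16 to 13.55 on chow (median 13.36), 12.82 to 13.69 on WD (median 13.05) and 12.25 to 12.76 in the arrays labelled iPgc1α-/- (median 12.43). All 6 arrays labelled iPgc1α-/- lay below all 6 Pgc1α fl/fl WD arrays, and the chow and WD ranges overlapped. Hist1h1e fell by 0.63 in the arrays labelled iPgc1α-/- (SE 0.12, adjusted p = 0.0357), with differences of -0.52, -0.77 and -0.60 within the 3 slides. For WD against chow the difference was -0.24 (SE 0.12, adjusted p = 0.169).

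The Hist1h1e call depended on single arrays. Leaving out 1 array at a time gave -0.68 to -0.51 and an adjusted p of 0.0249 to 0.107, and the call was lost for 11 of 18 arrays. Those were chow replicate 1, WD replicates 1, 2, 3, 4 and 6, and iPgc1α-/- replicates 2, 3, 4, 5 and 6. WD replicate 6, at 13.69, lay above the next Pgc1α fl/fl WD array, at 13.09, and without it the difference was -0.51 (adjusted p = 0.0420, under the fold threshold).

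The other 4 linker histones had no call. Hist1h1d (H1.3) read from 9.17 to 9.95 on WD and 8.47 to 9.18 in the arrays labelled iPgc1α-/-, a difference of -0.54 (adjusted p = 0.170). Hist1h1b (H1.5), the H1 gene with the lowest change on WD, read from 11.24 to 12.18 on chow (median 11.55) and 10.97 to 11.43 on WD (median 11.30). That difference of -0.44 (SE 0.15) had an adjusted p of 0.0374 and was under the fold threshold. It was -0.54 to -0.33 with single arrays left out (adjusted p up to 0.104) and -0.19 without both chow replicates 4 and 5 (adjusted p = 0.318). Hist1h1a (H1.1) read from 7.82 to 8.13 on WD and 7.38 to 7.77 in the arrays labelled iPgc1α-/-, without overlap, and the adjusted p was 0.540. The testis-specific Hist1h1t stayed between 5.19 and 5.78 on all arrays, with differences of +0.06 and +0.06.

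The promoters of Hist1h1c and Hist1h1e share the elements that H1 genes are known for. In the RefSeq promoter windows (250 bases before to 50 after the gene start, GRCm38.p6, both strands searched), the H1 box AAACACA was present in 5 of 6 H1 genes, in 9 of the 47 histone cluster genes with an entry (19.1%) and in 7.18% of all 32851 promoters. The 250 bases before the gene start are shown for the 2 called genes, since they read in opposite directions by genotype. Capitals mark the H1 box AAACACA, the CCAAT box and the TATA box TATAAA, read on the strand of the gene.
Hist1h1c, GRCm38.p6 chr13:23738557-23738806, + strand: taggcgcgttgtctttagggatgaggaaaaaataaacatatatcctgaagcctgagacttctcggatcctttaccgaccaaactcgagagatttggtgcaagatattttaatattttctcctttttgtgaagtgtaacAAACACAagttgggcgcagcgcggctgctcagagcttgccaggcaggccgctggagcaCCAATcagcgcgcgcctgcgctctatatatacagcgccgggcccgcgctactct
Hist1h1e, GRCm38.p6 chr13:23622559-23622808, - strand: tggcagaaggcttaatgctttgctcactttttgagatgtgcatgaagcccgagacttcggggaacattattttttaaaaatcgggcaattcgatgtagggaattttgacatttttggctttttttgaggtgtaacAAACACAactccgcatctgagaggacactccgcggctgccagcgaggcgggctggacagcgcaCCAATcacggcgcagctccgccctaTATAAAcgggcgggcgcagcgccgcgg
AAACACA starts at -112 in Hist1h1c and -115 in Hist1h1e, and CCAAT at -54 and -52. TATAAA starts at -27 in Hist1h1e and is not among the letters of this stretch in Hist1h1c.

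Among the core histones, every H2A gene read lower on WD. H2A pairs with H2B on the outer part of the nucleosome. All 15 H2A genes had a negative change (median -0.32), against 49.5% of all genes. Adjusted p was at most 0.05 for 10 of 15, and 14.2% of all genes were lower at that level. None of the 15 passed the fold threshold. Without chow replicates 4 and 5, the lowest adjusted p of an H2A gene was 0.0517 (Hist1h2ae, -0.28). Hist1h2ac then changed by +0.03. Hist1h2af, the H2A gene with the highest mean signal, read from 16.57 to 17.15 on chow (median 16.72), 16.33 to 16.61 on WD (median 16.48) and 16.16 to 16.53 in the arrays labelled iPgc1α-/- (median 16.36). Its WD change was -0.32 (SE 0.10, adjusted p = 0.0228), and the chow and WD ranges overlapped by a narrow margin. Without chow replicates 4 and 5 the Hist1h2af change was -0.18 (adjusted p = 0.197). Hist1h2ai had the lowest H2A change, from 8.46 to 9.42 on chow (median 8.73) to 7.87 to 8.76 on WD (median 8.32), a difference of -0.57 (SE 0.17, adjusted p = 0.0201). Hist1h2ai passed the fold threshold too without chow replicate 1, 3 or 6, without WD replicate 1, 5 or 6, or without iPgc1α-/- replicate 5, with differences of -0.67 to -0.59. Over all single arrays left out, Hist1h2ai gave -0.67 to -0.45 with an adjusted p up to 0.0648, and without chow replicates 4 and 5 it gave -0.35 (adjusted p = 0.177). Hist3h2a read from 12.78 to 13.62 on chow (median 12.99) and 12.51 to 12.85 on WD (median 12.63), a difference of -0.42 (SE 0.12, adjusted p = 0.0138), which was -0.25 without chow replicates 4 and 5 (adjusted p = 0.10). A second Hist3h2a probe, 567 bases away, gave +0.18, and the gap between the probes differed by -0.60 (two-sided exact permutation p = 0.0238, adjusted 0.0867 over the 16 tests). In the arrays labelled iPgc1α-/-, no H2A gene reached an adjusted p of 0.05, and the H2A changes lay between -0.36 and +0.07.

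The H2A probes also share sequence. Of the 15 H2A probes, 10 share a run of at least 20 letters with the probe of another gene, so their spots can bind each other's transcripts and are not 10 separate readings. The probes are shown because they cover the same carboxy-terminal codons, with capitals marking the longest run in common with the probe of Hist1h2af.
Hist1h2af: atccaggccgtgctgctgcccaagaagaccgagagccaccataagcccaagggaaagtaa
Hist1h2ah: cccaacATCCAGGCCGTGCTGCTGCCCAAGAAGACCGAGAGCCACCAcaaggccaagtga
Hist1h2ak: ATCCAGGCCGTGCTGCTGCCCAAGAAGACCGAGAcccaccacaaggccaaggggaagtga
Hist1h2an: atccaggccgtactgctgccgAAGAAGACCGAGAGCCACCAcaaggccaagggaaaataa
Hist2h2aa2: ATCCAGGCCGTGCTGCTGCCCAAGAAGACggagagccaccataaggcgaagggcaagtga
Hist2h2ac: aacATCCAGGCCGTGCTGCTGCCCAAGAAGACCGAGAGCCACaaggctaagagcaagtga
Hist1h2aa: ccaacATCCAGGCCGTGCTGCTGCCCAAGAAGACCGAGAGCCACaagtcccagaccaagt
H2afj: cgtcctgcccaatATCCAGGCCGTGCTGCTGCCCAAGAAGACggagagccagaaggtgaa
Hist2h2ab: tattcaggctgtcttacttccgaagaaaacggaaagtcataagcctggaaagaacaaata
Hist1h2ah shares 41 letters with Hist1h2af, and the same stretch reaches Hist2h2aa2 and Hist2h2ac on chromosome 3. Hist1h2aa, whose product is known from testis, shares 39. H2afj, a replacement H2A gene outside the clusters, shares 29 and changed on WD by -0.27 (adjusted p = 0.0390). Hist2h2ab shares no run longer than 8 letters. Its signal was dim, with 4 of 6 WD arrays and 2 of 6 arrays labelled iPgc1α-/- well above background, so its lower range by genotype (4.84 to 5.08 against 5.08 to 5.56) lay near background.

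The same count was made over all classes. The 17 genes of all classes whose probe shares a 20-letter run with another gene's probe were lower in both comparisons, with medians of -0.32 for WD and -0.13 by genotype. The 35 genes whose probe shares no such run had medians of -0.18 and -0.04, with 25 lower on WD and 18 lower by genotype (49.5% and 48.1% of all genes). Of those 35, 11 had an adjusted p of at most 0.05 on WD (24.6% of all genes did), 10 of them lower (14.2% of all genes). The count set probe against probe, not probe against transcript. The 16 genes whose probe lists 2 or more RefSeq genes had medians of -0.305 for WD and -0.113 by genotype. Some of them, such as Hist1h2bb and Hist1h3d, are among the 35. Hist1h2ah had no value on WD replicate 2, where its spot was marked as an outlier, so its WD mean rests on 5 arrays (adjusted p = 0.0530).

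**Figure D4:**
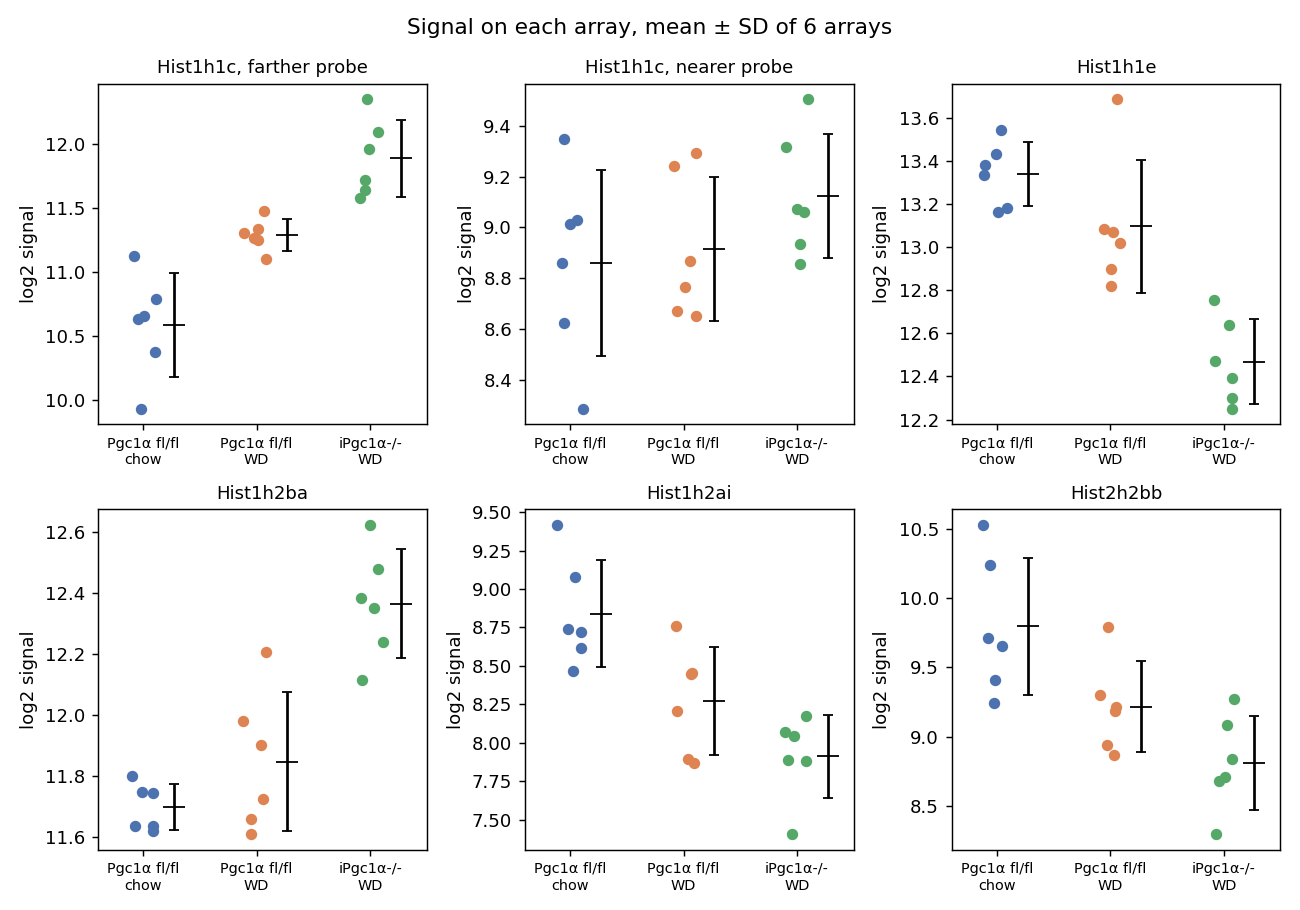
Log2 signal of Hist1h1c (both probes), Hist1h1e, Hist1h2ba, Hist1h2ai and Hist2h2bb on each array (points), with bars for the mean ± SD of each group (n = 6). The farther Hist1h1c probe and Hist1h2ba are highest, and Hist1h1e lowest, in the arrays labelled iPgc1α-/-, while the nearer Hist1h1c probe overlaps between all groups.

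The H2B genes that passed on WD were not the one that passed by genotype. H2B forms the dimer with H2A that caps each face of the nucleosome. By diet, 7 of 13 read lower by sign (median -0.15), against 49.5% of all genes. Adjusted p was at most 0.05 for 4, each of them lower, against 14.2% of all genes. Hist2h2bb, with the lowest change, read from 9.24 to 10.53 on chow (median 9.68) and 8.87 to 9.79 on WD (median 9.20), a difference of -0.58 (SE 0.20, adjusted p = 0.0442). Its ranges overlapped, and without chow replicate 3 it passed the fold threshold at -0.71 (adjusted p = 0.0151). Without chow replicate 4 it was -0.435 (adjusted p = 0.123), and without chow replicates 4 and 5 it was -0.28 (adjusted p = 0.339). Hist3h2ba, from the small cluster on chromosome 11, read from 8.01 to 8.56 on chow (median 8.25) and 7.19 to 7.84 on WD (median 7.81). Its difference was -0.56 (SE 0.14, adjusted p = 0.00631), and no chow array reached down to a WD array. That probe lists no RefSeq transcript. A second Hist3h2ba probe, 160 bases away, gave -0.34 for WD. The gap between the Hist3h2ba probes differed by -0.21 (two-sided exact permutation p = 0.0325, adjusted 0.0867 over the 16 tests). Hist1h2bp was dim, with a lowest chow value of 5.384 and a highest WD value of 5.38, and differed by -0.42 (adjusted p = 0.00169). Hist1h2bc, the H2B gene with the highest mean signal, read from 13.46 to 13.97 on chow (median 13.60) and 13.75 to 14.29 on WD (median 13.89), a difference of +0.32 that did not pass (SE 0.12, adjusted p = 0.0582).

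By genotype, Hist1h2ba was the H2B gene with an adjusted p under 0.05. It encodes a testis-type H2B that replaces somatic H2B in developing sperm, and its gene lies beside Hist1h2aa at one end of the chromosome 13 cluster (probe at mm9 24025811 to 24025870). Hist1h2ba read from 11.62 to 11.80 on chow (median 11.69), 11.61 to 12.21 on WD (median 11.81) and 12.11 to 12.62 in the arrays labelled iPgc1α-/- (median 12.37). A single WD array reached the iPgc1α-/- range. The difference was +0.52 (SE 0.10, adjusted p = 0.0306), a fold change below 1.5, with +0.27, +0.65 and +0.63 within the 3 slides. For WD against chow it was +0.15 (adjusted p = 0.300). By genotype, no histone cluster gene had an adjusted p of 0.05 or lower with Agilent's processed signal or with 75th percentile scaling. The same held with only the 2 groups compared or with a replicate block, so the Hist1h2ba result depended on the processing.

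Hist1h2bb, Hist1h2bm and Hist1h2bn were also higher by sign and did not pass. Hist1h2bb read from 12.21 to 12.94 on WD (median 12.44) and 12.69 to 13.23 in the arrays labelled iPgc1α-/- (median 12.98), a difference of +0.51 (SE 0.11, adjusted p = 0.0631). Hist1h2bm read from 12.15 to 12.73 and 12.58 to 12.96, a difference of +0.44 (SE 0.09, adjusted p = 0.0703). Hist1h2bn read from 11.20 to 11.68 and 11.48 to 12.89, a difference of +0.60 (SE 0.17, adjusted p = 0.226). Each of these 3 genes was higher in the arrays labelled iPgc1α-/- on all 3 slides. The Hist1h2bb probe lists RefSeq transcripts of Hist1h2bb, Hist1h2bj, Hist1h2bm and Hist1h2bp. The Hist1h2bm probe lists those of Hist1h2bg, Hist1h2bh, Hist1h2bm and Hist1h2bp, so these spots are not separate readings of single genes. The probes of these 3 genes are shown with that of Hist1h2ba so that the letters can be set side by side.
Hist1h2ba: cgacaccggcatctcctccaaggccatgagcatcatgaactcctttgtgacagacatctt
Hist1h2bb: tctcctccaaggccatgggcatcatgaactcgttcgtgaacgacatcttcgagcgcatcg
Hist1h2bm: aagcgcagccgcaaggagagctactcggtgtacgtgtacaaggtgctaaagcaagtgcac
Hist1h2bn: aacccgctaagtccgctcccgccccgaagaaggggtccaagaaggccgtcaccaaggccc
The probes of Hist1h2ba and Hist1h2bb have a run of 17 letters in common, and the other 5 pairs have runs of 5 to 8. Past that run, the letters of Hist1h2ba and Hist1h2bb mostly continue alike, so each spot may bind the other gene's transcripts. How much of the Hist1h2ba signal comes from Hist1h2ba transcripts was not tested. A second probe for Hist1h2bb, 123 bases away, gave +0.12 by genotype. The gap between the Hist1h2bb probes widened by 0.39 (two-sided exact permutation p = 0.0216, adjusted 0.0867 over the 16 tests).

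The H3 genes, like the H2A genes, mostly read lower on WD. H3 carries most of the well-studied tail modifications of chromatin. By sign 7 of 9 H3 genes were lower (median -0.31), against 49.5% of all genes. Adjusted p was at most 0.05 for 4, each of them lower, against 14.2% of all genes. Hist1h3c had the lowest change, from 11.50 to 12.67 on chow (median 11.87) to 11.22 to 11.98 on WD (median 11.48), a difference of -0.48 (SE 0.17, adjusted p = 0.0429). Hist1h3d, with the highest mean signal, read from 13.34 to 13.87 on chow (median 13.57) and 13.20 to 13.43 on WD (median 13.28), a difference of -0.31 (SE 0.09, adjusted p = 0.0201). Both genes had a negative difference on each of the 3 slides, and their groups overlapped. Without chow replicates 4 and 5 the differences were -0.23 for Hist1h3c (adjusted p = 0.305) and -0.225 for Hist1h3d (adjusted p = 0.136). In the arrays labelled iPgc1α-/-, neither difference passed (-0.27 and -0.10, adjusted p = 0.607 and 0.755).

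Hist2h3c1 and Hist2h3c2, from the chromosome 3 cluster, read the other way. Hist2h3c2 read from 6.75 to 8.51 on chow (median 7.53), 7.38 to 8.12 on WD (median 7.97) and 8.26 to 9.14 in the arrays labelled iPgc1α-/- (median 8.45). The genotype ranges of Hist2h3c2 did not overlap, and the difference of +0.77 (SE 0.26) had an adjusted p of 0.360. Hist2h3c1 differed by +0.77 (SE 0.24, adjusted p = 0.323). The probes of both list no RefSeq transcript, as does the called probe of Hist1h1c. Of the 7 genes whose probe lists none, 1 was lower by genotype (48.1% of all genes were) and 6 were higher, with a median of +0.07. None of the 7 passed after adjustment by genotype. Hist1h2ac, Hist1h2ae and Hist1h2bg, which are among the 6, differed by +0.071, +0.052 and +0.068. Whether the missing transcript bears on the direction was not tested. A second Hist2h3c2 probe, 211 bases away, gave +0.80.

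Of the 9 H4 genes measured under a Hist name, none was called in either comparison, with or without the fold threshold. H4 forms the inner tetramer with H3, and its amino acid sequence is nearly invariant. All 9 H4 genes were lower on WD by sign (49.5% of all genes were), with a median of -0.15. That shared sign depended on chow replicates 4 and 5. Without these arrays Hist1h4i was still lower, at -0.144, and every other H4 gene was higher, from +0.009 (Hist1h4j) to +0.171 (Hist1h4c). By the count of shared runs above, 3 of the 9 probes share letters with another gene's probe. The 9 are thus not separate readings. The 95% interval lay within 1.5-fold for all 9. Hist1h4d, with the highest mean signal, read from 14.63 to 15.42 on chow (median 14.94), 14.78 to 15.20 on WD (median 14.83) and 14.67 to 14.88 in the arrays labelled iPgc1α-/- (median 14.79). Its differences were -0.11 for WD (adjusted p = 0.569) and -0.13 by genotype (adjusted p = 0.760). Hist1h4i, with the lowest change, read from 8.61 to 9.17 on chow and 8.31 to 8.99 on WD, a difference of -0.28 (SE 0.13, adjusted p = 0.115).

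Some probes reach into the stem-loop itself, the 16-letter hairpin that binds the stem-loop binding protein Slbp. Among the 60 kept histone probes, 6 held a 16-letter stem-loop, against 36 of 56605 probes on the array (0.0636%). The hairpin took 3 forms, which are shown with capitals where a letter equals that of the commonest form, which 4 of the 6 held.
Hist2h2bb: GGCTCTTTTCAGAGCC
Hist1h3g: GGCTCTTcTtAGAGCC
Hist1h4m: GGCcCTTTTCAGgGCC
The loop and both arms can be read off the letters: in Hist1h4m the 2 changed letters lie opposite each other in the stem. The 9 genes whose brightest probe holds the stem-loop or its first 9 letters were all lower in both comparisons. Their medians were -0.37 for WD and -0.26 by genotype, and 49.5% and 48.1% of all genes were lower. Among these genes, the probes of Hist1h2ai, Hist1h2bf, Hist1h3a, Hist1h3i and Hist2h2bb share a 20-letter run with another gene's probe. The 9 are thus not separate readings. Of these 9 genes, 3 had an adjusted p of 0.05 or lower on WD (Hist1h2ai, Hist1h3g and Hist2h2bb) and none by genotype. On WD, 14.2% of all genes were lower at that level. Without chow replicates 4 and 5, the adjusted p was 0.177 for Hist1h2ai and 0.339 for Hist2h2bb. Hist1h3g read from 6.79 to 7.69 on chow (median 7.25) and 6.36 to 7.11 on WD (median 6.87), a difference of -0.47 (SE 0.16, adjusted p = 0.0328), and of -0.305 without chow replicates 4 and 5 (adjusted p = 0.234).

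The promoters of the core histone genes differed by class in the elements they held. The octamer ATTTGCAT was in 7 of 15 H2A and 6 of 11 H2B windows, in no H1, H3 or H4 window and in 1.74% of all promoters. CCAAT was in every H1, H2A, H2B and H3 window and in 2 of 8 H4 windows, against 37.4% of all promoters. TATAAA was in 27 of 47 windows (57.4%), against 13.6% of all promoters. Neighbouring H2A and H2B genes that start back to back can share a window.

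Genes of the pathways around the histone clusters were read from fixed lists, each described by its counts. On WD, 8.43% of all genes were called, and without the fold threshold 14.2% were lower and 10.4% higher. Of 28 DNA replication genes, 3 fell on WD, 1 rose and 12 were lower at an adjusted p of 0.05 or lower without the fold threshold, with a median of -0.40. Rrm2, which supplies deoxynucleotides, fell by 0.83, and the helicase subunits Mcm4 and Mcm3 fell by 0.67 and 0.60. Of 20 mitosis genes, 9 fell and none rose, with a median of -0.55. They included Ccnb1 (-0.74), Ccnb2 (-0.73), Ccna2 (-0.72) and Cdc20 (-0.70), which drive entry into and exit from mitosis. The DNA replication list read 10.06 in chow replicate 4 and 9.78 in chow replicate 5, against 9.08 to 9.47 in the other 4 chow arrays and 8.88 to 9.43 on WD. The same 2 chow arrays were thus highest for this list and for the histone cluster genes. Without these 2 arrays, 1 DNA replication gene was called lower and 2 were lower without the fold threshold (median -0.19), and 2 mitosis genes were called lower, with 6 lower without the fold threshold (median -0.34). The part of these arrays in the WD result beyond these values was not tested.

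The genes that act on histone genes, mRNAs and proteins, and the replacement histones, were counted in the same way. Of 14 genes of histone gene transcription, E2f2, an S phase transcription factor, fell by 0.996, and 3 were lower without the fold threshold (median -0.25). None of 15 genes of histone mRNA 3′ end processing was called and 4 were lower without the fold threshold (median -0.23). Slbp read from 9.39 to 9.98 on chow and 8.84 to 9.68 on WD, a difference of -0.34 (adjusted p = 0.0893). Of 24 histone chaperone genes, Anp32e, which removes H2A.Z from chromatin, fell by 0.70 and Nap1l1, a chaperone of H2A and H2B, by 0.62, and 8 were lower without the fold threshold (median -0.18). Of 15 replacement histone genes, which are expressed outside S phase as well, Cenpa, the centromeric H3, fell by 0.81 and H2afz, which encodes H2A.Z, by 0.63. Without the fold threshold 6 were lower and 1 higher (median -0.08). Without chow replicates 4 and 5, called lower were 1 of the 14 transcription genes, none of the 24 chaperones and 1 of the 15 replacement histones. By genotype no gene of these 6 lists had an adjusted p of 0.05 or lower.

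Most markers of T cells, plasma cells and goblet cells, and 6 of 11 of B cells, were called lower on WD. Of all genes, 8.43% were called on WD in either direction, and none of the 52 histone cluster genes was called lower. Of 11 T cell markers 10 fell and 1 rose (median -1.67), and the granzyme gene Gzma fell by 2.17. Of 11 B cell markers 6 fell (median -0.73; 3 fell without chow replicates 4 and 5), and Cd79b, of the B cell receptor, fell by 2.60. Of 7 plasma cell markers 5 fell (median -0.81), and Jchain, of secreted immunoglobulin, fell by 3.23. The B cell list lay between 7.24 and 8.58 on chow and 6.47 and 7.64 on WD, and the plasma cell list between 8.48 and 9.19 and between 7.48 and 8.16. Of 8 goblet cell markers 6 fell (median -0.73), and of 10 crypt stem cell markers none was called, with 3 lower and 1 higher without the fold threshold (median -0.20). Of 15 enterocyte markers 3 rose and 1 fell (median +0.16). Fewer calls were made for Paneth cell markers (2 of 9 fell, median -0.11), germinal centre B cell markers (none of 6 called, median -0.19), macrophage and dendritic cell markers (1 of 8 fell, median -0.14) and stroma and endothelium markers (none of 7 called, median +0.02). No marker was called by genotype. The part of these cells in the lower histone signals on WD was not tested.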

How the data were processed

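The authors scanned the arrays and deposited spot intensity values from Agilent Feature Extraction 10.10.1.1, not normalised between arrays, and a table of log2 values for 33095 probes. Per their methods, they filtered, took log2, corrected for washing bath and labelling serial (batches not named in the labels, so not repeated) and applied qsmooth and limma. Every value column had a sample. Here, control and outlier spots were left out, spots of one probe were averaged, and the median signal was qsmooth-normalised with an own implementation. Of 56605 probes, 32726 were kept. A fit of the 3 groups in limma 3.58.1 (R 4.3.3) gave moderated tests with Benjamini-Hochberg adjustment, checked on simulated data. Probe coordinates are mm9, and promoters are RefSeq, GRCm38.p6. The number of arrays limits the precision. Genes named were those called, the brightest and the most changed of each class for WD, and up to 4 called per list. Others were named after their values were seen, and 1 listed gene that the rule names is not reported here. Members, lists and tests were chosen with earlier results of these data known. Alternatives covered background correction, scaling, blocks, weights, filters, probes and single arrays.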

Additional observations from a re-analysis of the deposited data

Results flagged for a closer look

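Hist1h1e read 13.69 in Pgc1α fl/fl WD replicate 6, far above the next array of its group at 13.09. The gap was 0.693 of the group's range. Of 36 groups of arrays looked at, 1 was this far apart, by Dixon's criterion at the 95% level, and chance marks about 1 in 20. Without this array the genotype difference of Hist1h1e was -0.51 (adjusted p = 0.0420 from limma).

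Some probes carry a histone description and an accession in place of a Hist name, so they lay outside the 52 genes. The probe described as histone cluster 2 H2aa1 had a chow median of 12.68 and differed on WD by +0.31 (adjusted p = 0.0226, under the fold threshold), while the WD change of all 15 H2A genes was negative. The probe described as histone cluster 1 H4i had a chow median of 9.05, with a WD difference of -0.27 (adjusted p = 0.113) and a genotype difference of +0.31 (adjusted p = 0.433), beside -0.28 for each in the gene named Hist1h4i. The probes described as histone cluster 1 H2be and H4j were dim, with chow medians of 5.5 and 5.35, and the H4j probe differed on WD by -0.26 (adjusted p = 0.0268, under the fold threshold).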

How the results depend on the processing

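With WD against chow, the 1 gene called became 6 with Agilent's processed signal in place of the median signal (75th percentile scaling), 4 with array weights, 0 with the mean of a gene's kept probes and 20 with no fold threshold; leaving out single arrays gave 1 to 4. The 20 genes at adjusted p of 0.05 or lower without a fold threshold became 11 with that processed signal, 9 when the median signal got 75th percentile scaling and 3 without chow replicates 4 and 5 (chosen after seeing the data); leaving out single arrays gave 5 to 25. The median of -0.26 was -0.11 without those 2 arrays and -0.31 to -0.19 without single arrays. By genotype, the 1 gene called became 0 with the processed signal, the 75th percentile scaling, only the 2 groups compared, array weights and an adjusted p of 0.01, and 2 with no fold threshold; leaving out single arrays gave 0 to 3. The 2 genes at adjusted p of 0.05 or lower became 0 with the processed signal, the 75th percentile scaling and only the 2 groups, 4 with normexp and 1 without chow replicates 4 and 5; leaving out single arrays gave 0 to 4. The median of -0.11 was -0.15 to -0.08 without single arrays and -0.19 to -0.04 over the other 15 alternatives. For Hist2h3c2, the WD difference of +0.18 was -0.019 without chow replicate 3, the lowest when single arrays were left out, and +0.366 at the highest. The cause of these shifts was not tested.

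With the group mean of each probe subtracted, same-numbered arrays correlated from -0.131 to 0.284 for diet (4 of 6 above 0.1) and from -0.189 to 0.332 for genotype (3 of 6). No correlation was computed between arrays with different numbers, so whether the replicate numbers pair the arrays was not settled. With a replicate block, 0 genes were called by genotype, Hist1h1e had an adjusted p of 0.107, and 0 had an adjusted p of 0.05 or lower, while 1 was called for WD.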
